A study of Homo sapiens with 6 samples.

Results

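The nuclear factor I (NFI) family of transcription factors was examined in Omni-ATAC profiles of MM.1S cells. Its 4 members, NFIA, NFIB, NFIC and NFIX, were taken whatever their values, but the family was chosen by the DMSO-only regions counted at NFIA in these same libraries, so all differences between the groups are given as descriptions with no test. Omni-ATAC uses a transposase that cuts accessible DNA, and reads pile up where chromatin is open. MM.1S is an established multiple myeloma line, derived from a malignant plasma cell. One group of 3 libraries came from MM.1S cells treated with CB-6644, at 120 nM for 72 h, and the other 3 came from MM.1S cells given DMSO, the solvent. The compound blocks the ATPases RUVBL1 and RUVBL2, which form a pair found in several chromatin remodelers. Live cells were sorted after treatment, so the libraries describe the cells that survived. The comparison asks where open chromatin at these genes was lost, kept or gained after RUVBL1/2 inhibition.

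NFI proteins bind DNA as dimers at a palindrome of TTGGC and GCCAA, or more weakly at a single arm of it, and activate or repress transcription depending on the gene. The paralogs share a DNA binding domain and differ mainly in their carboxy-terminal parts. NFIA is best known for switching neural progenitors to glia and for directing blood progenitors towards the erythroid lineage. NFIB is known for lung and brain maturation, NFIC for tooth root formation, and NFIX for muscle development and the survival of blood stem cells. Accessibility alone does not show whether a gene is transcribed.

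Peaks of the 6 libraries that overlapped by at least 1 bp were merged into 89196 regions, and those in each gene body with 150 kb on each side were assigned to that locus. This gave 141 regions, with 37 at NFIA, 11 at NFIB, 42 at NFIC and 51 at NFIX. A region called in all 3 DMSO libraries and in no CB-6644 library was termed DMSO-only, and the reverse CB-6644-only. There were 8 DMSO-only regions at the 4 loci, 7 of them at NFIA and 1 at NFIX, and 0 CB-6644-only regions. Across the series, 4.5% of the regions were DMSO-only and 0.586% were CB-6644-only.

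The libraries differed in peak number, background and shortest peak, partly along the groups. The lists held 58563 to 71781 peaks in CB-6644 libraries and 65569 to 79020 in DMSO libraries, with no read totals, so the depth is unknown. The background recovered from the peak scores, which stands in for depth, was 3.20 to 7.05 tags per kb in CB-6644 and 6.40 to 9.08 in DMSO libraries. CB-6644 replicate 2 and DMSO replicate 1 stood apart, with shortest peaks of 65 and 91 bp against 131 to 152 bp in the other 4. The shortest peak was read as the caller's fragment length setting, which is an inference on which the tags per kb also rest, and these libraries are termed short-fragment and the other 4 long-fragment only in that sense. The part of these differences in the results was not tested. All 7 plasma cell genes looked up (SDC1, PRDM1, XBP1, IRF4, TNFRSF17, CD38 and CD27) had a promoter peak in all 6 libraries. The promoters of CD3E and CD3D, of MPO and CSF1R and of MS4A1 had none, nor had that of GATA1, while ITGA2B, PAX5, COL1A1 and PDGFRB had one in all 6.

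The sequences below are those of NFIA DMSO-only regions inside the gene body, printed because they show the DNA under peaks called in DMSO libraries alone. The first holds the 50 bases on each side of the strongest summit of the best-ranked DMSO-only region at NFIA. The second spans 100 bases on each side of a summit, because it holds matches to motifs searched for, which are in capitals. Both are the plus strand of hg38, 5′ to 3′.
NFIA intron, chr1:60899116-60899216: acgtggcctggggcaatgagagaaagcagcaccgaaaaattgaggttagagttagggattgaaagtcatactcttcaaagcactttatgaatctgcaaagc
NFIA intron, chr1:61141653-61141853: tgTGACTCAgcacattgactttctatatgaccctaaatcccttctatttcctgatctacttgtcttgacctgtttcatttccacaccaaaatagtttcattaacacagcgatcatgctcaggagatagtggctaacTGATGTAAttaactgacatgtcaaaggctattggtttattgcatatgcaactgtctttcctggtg
In the second sequence the capitals mark an AP-1 match (TGANTCA), which reads the same on both strands apart from its free base, and an ATF4-CEBP match (TGATGNAA). A match is a description and does not show that a factor was bound.

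NFIA lies at chr1:60865259-61462788 on the plus strand (ENSG00000162599.18), and no other protein-coding gene starts in its window. The number of NFIA regions with a peak was 19, 22 and 21 in CB-6644 replicates 1, 2 and 3, and 31 in each of the 3 DMSO libraries. The group means were 20.7 ± 1.53 and 31 ± 0 (SD, n = 3), and the groups did not overlap. The CB-6644 mean was thus 66.7% of the DMSO mean, where over all regions of the series it was 85.4%. The groups were also apart over the series, with a peak in 57511, 60349 and 57226 regions in CB-6644 replicates 1, 2 and 3. In DMSO replicates 1, 2 and 3 the numbers were 71131, 69317 and 64577.

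Of the 37 NFIA regions, 19 were called in all 6 libraries and 7 were DMSO-only. Another 7 regions were called in 1 library, 5 of them in a DMSO library and 2 in CB-6644 replicate 2. No NFIA region was called in at least 2 CB-6644 libraries without a DMSO call. At least 1 DMSO-only region was present in the window of 38.5% of the 20033 protein-coding genes, and at least 7 in 0.015% of them. There was 1 gene with more than NFIA, and the highest number was 10. As the family was chosen for this count, the background is given for scale and nothing is read from it.

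**Figure D1:**
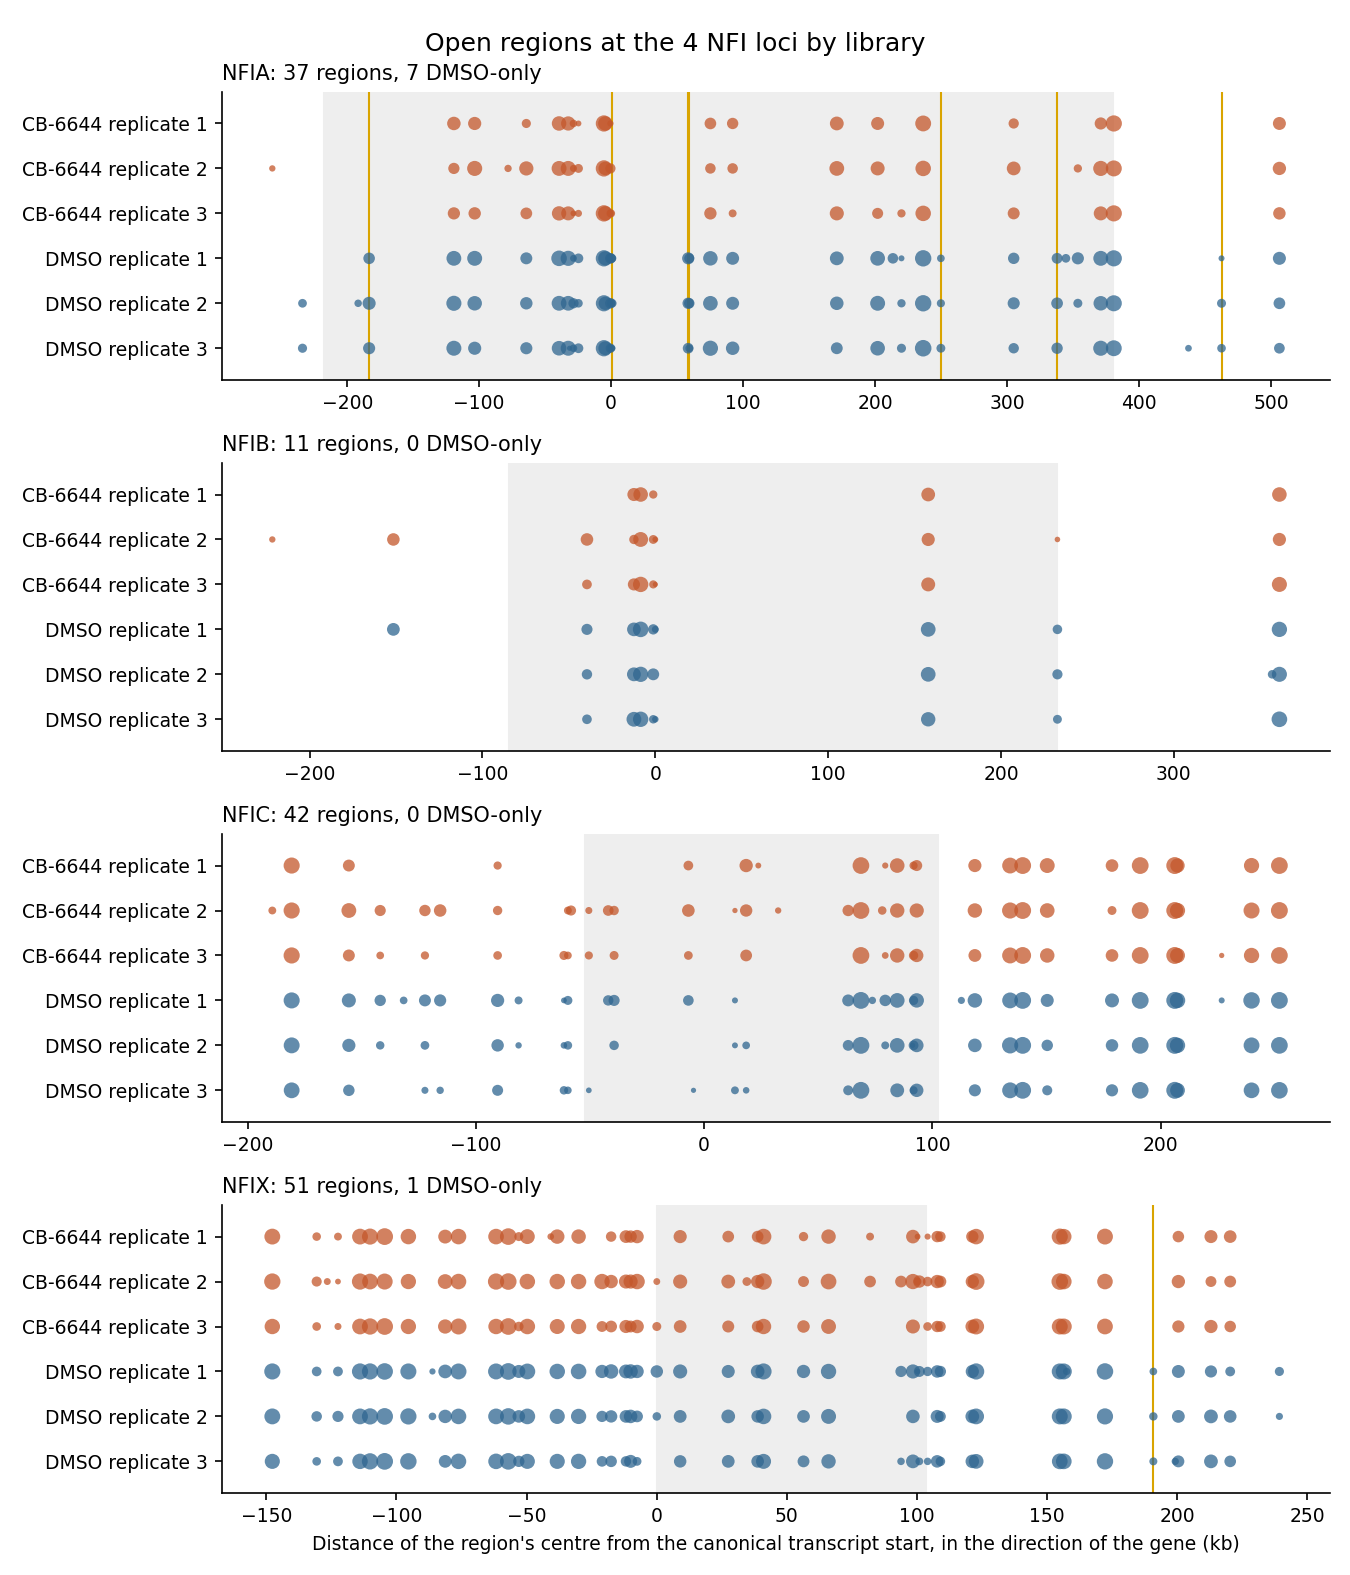
Each panel is an NFI locus, with the distance of each region from the canonical transcript start in kb on the x axis and the 6 libraries on the y axis. Each point is a called peak, larger for a higher percentile of -log10 p within its library, grey marks the gene body and gold lines mark DMSO-only regions, of which NFIA has 7, with the pair near 59 kb drawn almost as 1 line, and NFIX has 1.

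**Figure D2:**
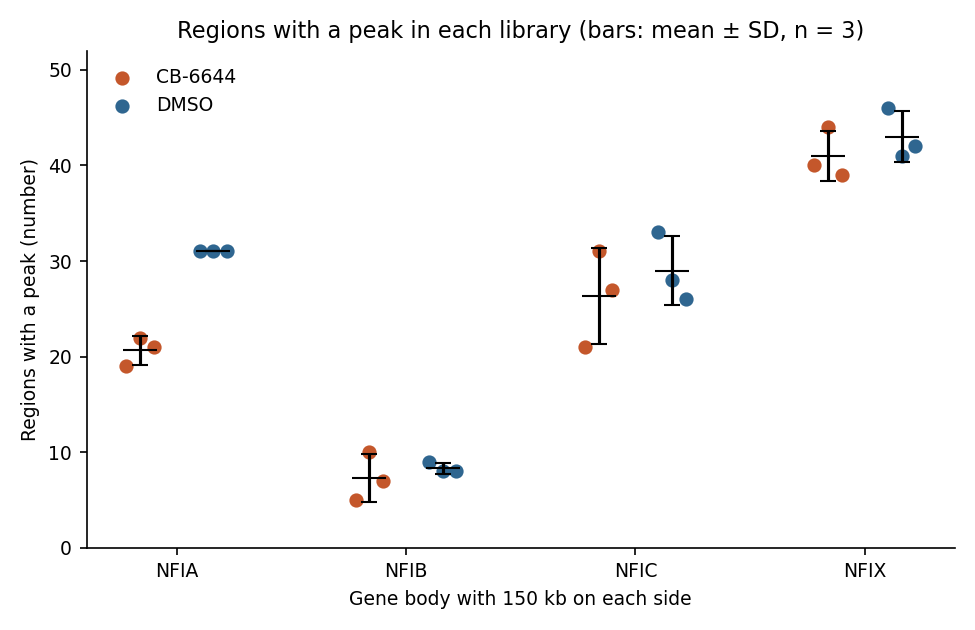
The number of regions with a peak is plotted for each library at each locus, with bars for the mean ± SD of 3 libraries. At NFIA the CB-6644 libraries lie at 19 to 22 and the DMSO libraries at 31, while at NFIB, NFIC and NFIX the groups overlap.

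The DMSO-only regions at NFIA were ranked by percentile, the standing of a peak's -log10 p within its own list, where the strongest peak of a library stands at 100. The region highest in rank was chr1:60899008-60899349, in an NFIA intron 33676 bp from the nearest NFIA start. It stood at 41.5, 55.8 and 46.5 in DMSO replicates 1, 2 and 3 (mean 47.9 ± 7.26, SD, n = 3). It therefore ranked near the middle of each DMSO list and was not called in any CB-6644 list.

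A pair of intronic regions lay next to each other downstream of the canonical start. The first, chr1:61140806-61141012 at 58.3 kb, stood at the 46.1, 39.6 and 34.4 percentiles in DMSO replicates 1, 2 and 3. Its neighbour with the ATF4-CEBP and AP-1 matches printed above, chr1:61141640-61141882, stood at 29.2, 31.9 and 13.8. Both fell below the median of every DMSO list. Another intronic region, chr1:61420096-61420513, was more even, at 35.2, 42.7 and 39.7.

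The other DMSO-only regions at NFIA had the lowest mean percentiles of the 7. At the promoter, chr1:61083123-61083652 lay in an intron 369 bp from the nearest NFIA start and stood at 13.9, 16.6 and 4.69 in DMSO replicates 1, 2 and 3. A region over an NFIA exon with coding and UTR sequence, chr1:61332350-61332583, stood at 12.7, 15.4 and 20.4. Downstream of the gene, a region with an IRF match (GAAANNGAAA) stood at 3.84, 21.2 and 18.5. All of these ranked in the lower part of their lists, and the first was the only DMSO-only region within 1000 bp of an NFI transcript start. Such a region was found at 1.34% of protein-coding genes.

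The same regions were read as summit pile-up over the genome-wide background of each library, a ratio recovered from the fold and p of each peak. The intronic region at chr1:60899008-60899349 had ratios of 39.5, 42.1 and 31.7 in DMSO replicates 1, 2 and 3 (mean 37.7 ± 5.38, SD, n = 3). The region at chr1:61420096-61420513 had a mean of 31.6 ± 2.94, and the downstream region with the IRF match had 17 ± 1.53. The promoter region chr1:61083123-61083652, low by percentile, had 29.2 ± 8.71, above the 23.8 ± 7.32 of chr1:61141640-61141882. A peak was called in CB-6644 replicates 1, 2 and 3 from a ratio of 8.95, 19.2 and 8.16 upwards. For all 8 DMSO-only regions the DMSO mean lay above the lowest ratio called in CB-6644 replicates 1 and 3, and for 5 of 8 it lay above that of CB-6644 replicate 2. These regions were called in all 3 DMSO libraries, where the lowest ratios were 10.3, 6.73 and 6.51 in replicates 1, 2 and 3. Means above 8.95 and 8.16 were therefore nearly fixed by the choice of regions, and nothing is read from them. All lowest ratios apply where the local background is no higher than the genome-wide one.

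**Figure D3:**
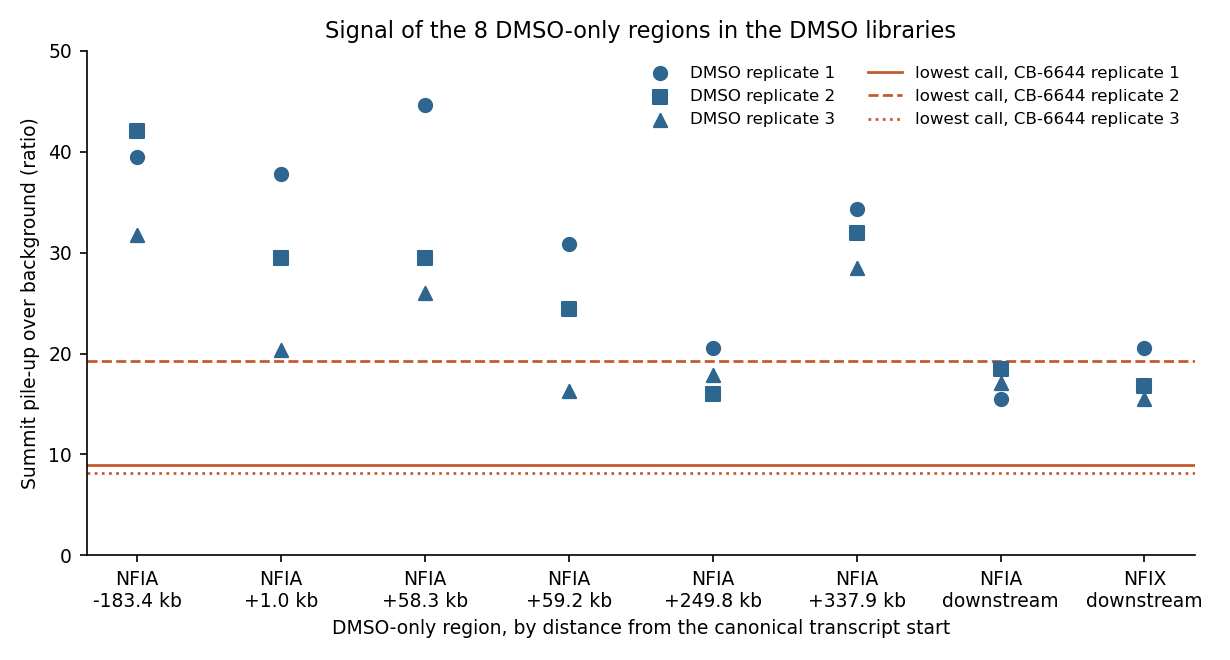
Summit pile-up over background (a ratio, y axis) is shown for the 8 DMSO-only regions in each DMSO library, with horizontal lines at the lowest ratio called in each CB-6644 library. All points lie above the lines of CB-6644 replicates 1 and 3 at 8.95 and 8.16, and the exon region at 249.8 kb, the downstream NFIA region and the NFIX region have means below that of replicate 2 at 19.2.

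Regions just outside the definition had all 3 libraries of one group and 1 of the other. At NFIA these were chr1:61082418-61082782, over the canonical start, and the intronic chr1:61302391-61302644, both called in the 3 DMSO libraries and in CB-6644 replicate 3. Regions with 3 DMSO calls and 1 CB-6644 call numbered 2 of 37 at NFIA, 1 of 11 at NFIB, 3 of 42 at NFIC and 0 of 51 at NFIX. Over the series there were 3165 of 89196. The region over the canonical start stood at 26.2, 14.7 and 10.2 in DMSO replicates 1, 2 and 3, and at 15 in CB-6644 replicate 3. The intronic one stood at 3.84, 16.6 and 21.7, and at 16.2 in CB-6644 replicate 3. In both, the percentile of the lone CB-6644 call lay within the range of the DMSO calls. By pile-up over background this held over the canonical start, at 45.9 against 61.8, 37.8 and 34.2 in DMSO replicates 1, 2 and 3. The intronic region had 19.4 in CB-6644 replicate 3, above the 15.4, 16.8 and 18.7 of DMSO replicates 1, 2 and 3.

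When the short-fragment libraries were left out, the counts at NFIA were 19 and 21 in CB-6644 replicates 1 and 3 against 31 and 31 in DMSO replicates 2 and 3. Among the regions of these 4 libraries, NFIA had 8 DMSO-only regions, and 12 were found at the 4 loci. In these libraries 9.21% of all regions were DMSO-only. With the 4 libraries thinned to equal background and peaks also required to reach a -log10 p of at least 20, the counts were 3 at NFIA and 4 at the 4 loci, where 6.44% of all regions were DMSO-only.

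The NFIA promoter had 6 regions within 1000 bp of its 28 annotated transcript starts, of which 4 were called in all 6 libraries. The strongest, chr1:61076735-61077392, covers an upstream start and stood at 91.6, 92.1 and 92.7 in CB-6644 replicates 1, 2 and 3 and at 91.8, 90.3 and 91.6 in DMSO replicates 1, 2 and 3. The groups overlapped, with means of 92.1 ± 0.585 and 91.2 ± 0.807 (SD, n = 3). Next to it, chr1:61077925-61078209 stood at 60.7 to 70.4 in CB-6644 and 58.2 to 67.7 in DMSO libraries, again with overlap.

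Around the canonical start of NFIA, at position 61082561, the calls ranked lower by percentile. The region just upstream, chr1:61081943-61082294, stood at 5.15, 30.3 and 13.5 in CB-6644 replicates 1, 2 and 3 and at 33.9, 33.3 and 24.5 in DMSO replicates 1, 2 and 3. The short-fragment CB-6644 replicate 2 reached into the DMSO range there. By pile-up over background this region was not low, at 81.5 ± 42.1 in CB-6644 and 74 ± 17.3 in DMSO libraries (SD, n = 3). The medians over the NFIA regions called in all 6 libraries were 81.5 and 85.1. A further region, chr1:61053766-61054113 at an upstream start, stood at 3.65 to 12 in CB-6644 and 8.08 to 30.4 in DMSO libraries. The remaining promoter regions, the one over the canonical start and the DMSO-only one in the intron after it, are those described above.

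The open NFIA promoter upstream of the canonical start is printed here because it kept its rank in both groups, with the NFIB promoter that ranked highest and the NFIX promoter at the canonical start for comparison. Each is the 250 bases before a RefSeq transcript start, in the direction of the gene (GRCh38.p14), with IRF matches in capitals.
NFIA promoter, chr1:61076977-61077226, plus strand: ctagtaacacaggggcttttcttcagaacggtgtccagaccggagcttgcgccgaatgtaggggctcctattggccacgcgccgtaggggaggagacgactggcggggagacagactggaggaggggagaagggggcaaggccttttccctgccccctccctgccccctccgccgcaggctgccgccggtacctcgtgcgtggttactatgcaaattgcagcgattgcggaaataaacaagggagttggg
NFIB promoter, chr9:14322388-14322637, minus strand: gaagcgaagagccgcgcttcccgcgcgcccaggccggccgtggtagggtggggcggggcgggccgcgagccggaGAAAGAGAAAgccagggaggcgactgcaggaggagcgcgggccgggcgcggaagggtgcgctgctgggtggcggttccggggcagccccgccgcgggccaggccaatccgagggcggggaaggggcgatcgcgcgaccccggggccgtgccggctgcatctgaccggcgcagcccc
NFIX promoter, chr19:12995225-12995474, plus strand: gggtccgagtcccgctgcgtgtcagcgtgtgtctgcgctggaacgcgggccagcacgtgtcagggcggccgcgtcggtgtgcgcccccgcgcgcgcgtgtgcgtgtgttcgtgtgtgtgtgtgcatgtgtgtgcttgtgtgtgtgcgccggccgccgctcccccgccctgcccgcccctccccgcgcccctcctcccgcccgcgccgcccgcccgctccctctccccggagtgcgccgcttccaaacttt
Of the 19 RefSeq promoters of the family, 3 belonged to NFIA, 10 to NFIB, 1 to NFIC and 5 to NFIX. Their GC content ran from 37.6% to 87.2%. An IRF match was present in 3.02% of 35116 RefSeq promoters of this length.

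NFIB lies at chr9:14081843-14398983 on the minus strand (ENSG00000147862.18), also with no other protein-coding start in its window, and had the fewest regions. A peak was called in 5, 10 and 7 of its 11 regions in CB-6644 replicates 1, 2 and 3, and in 9, 8 and 8 in DMSO replicates 1, 2 and 3. The groups overlapped, at 7.33 ± 2.52 and 8.33 ± 0.577 (SD, n = 3), and the short-fragment CB-6644 replicate 2 was the highest library. No region was DMSO-only. The nearest to it was chr9:14081384-14081552, downstream of the gene, with DMSO percentiles of 25, 29.8 and 20.4 and a call at 1.92 in CB-6644 replicate 2.

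All 6 libraries had a peak at an NFIB promoter. The strongest NFIB promoter region, chr9:14322287-14322917, holds the IRF match printed above and stood at 71.3, 75 and 80.9 in CB-6644 replicates 1, 2 and 3, and at 83.3, 79.6 and 80.8 in DMSO replicates 1, 2 and 3. The ranges met, as CB-6644 replicate 3 lay above the 2 lower DMSO libraries. Nearer to the canonical start, chr9:14314823-14315512 stood at 15.7 to 20.1 in CB-6644 and 17.5 to 44.1 in DMSO libraries, and chr9:14313999-14314279 was called in 2 libraries of each group at percentiles of at most 8.55.

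NFIC lies at chr19:3314403-3469217 on the plus strand (ENSG00000141905.19), and 12 other protein-coding genes start in its window. A peak was called in 21, 31 and 27 of its 42 regions in CB-6644 replicates 1, 2 and 3, and in 33, 28 and 26 in DMSO replicates 1, 2 and 3. The means of 26.3 ± 5.03 and 29 ± 3.61 (SD, n = 3) differed by less than the SD of either group. Only 16 regions were shared by all libraries, and 10 were called in a single one.

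Just outside the definition, chr19:3305031-3305193, chr19:3380027-3380282 and chr19:3429620-3429818 were called in the 3 DMSO libraries and in 1 CB-6644 library. The reverse was seen at an NFIC promoter, chr19:3359586-3359750, which stood at 26.3, 51.2 and 19.4 in CB-6644 replicates 1, 2 and 3 and was called in DMSO replicate 1 at 33.4. It was the only region of the 4 loci with 3 CB-6644 calls and 1 DMSO call. No peak lay within 1000 bp of the canonical NFIC start. The strongest NFIC promoter region, chr19:3434832-3435551, overlaps coding sequence at a start inside the gene and stood at 97.2, 98.1 and 98.2 in CB-6644 replicates 1, 2 and 3 and at 99, 99.1 and 98.6 in DMSO replicates 1, 2 and 3.

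NFIX lies at chr19:12995475-13098796 on the plus strand (ENSG00000008441.19), and 15 other protein-coding genes start in its window. It was the most even locus, with 35 of 51 regions called in all 6 libraries. A peak was called in 40, 44 and 39 regions in CB-6644 replicates 1, 2 and 3 and in 46, 41 and 42 in DMSO replicates 1, 2 and 3, so that the groups overlapped (41 ± 2.65 and 43 ± 2.65, SD, n = 3). The DMSO-only region lay downstream of NFIX, with IER2, an immediate early gene, as the nearest protein-coding start. It stood at 12.7, 17.4 and 14.7 in DMSO replicates 1, 2 and 3, a low rank in each list.

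The NFIX promoter had 2 regions. At the canonical start, chr19:12995149-12995601 was called in CB-6644 replicates 2 and 3 at 8.09 and 21 and in DMSO replicates 1 and 2 at 49.6 and 18. The region near an internal start, chr19:13022397-13023472, stood at 42.7, 63.1 and 45.4 in CB-6644 replicates 1, 2 and 3 and at 55.4, 62.2 and 52.5 in DMSO replicates 1, 2 and 3. Each NFI gene thus had a promoter peak in all 6 libraries, as did 66.5% of protein-coding genes, but at the canonical start this was so for NFIA and NFIB, against 4 libraries for NFIX and 0 for NFIC.

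**Figure D4:**
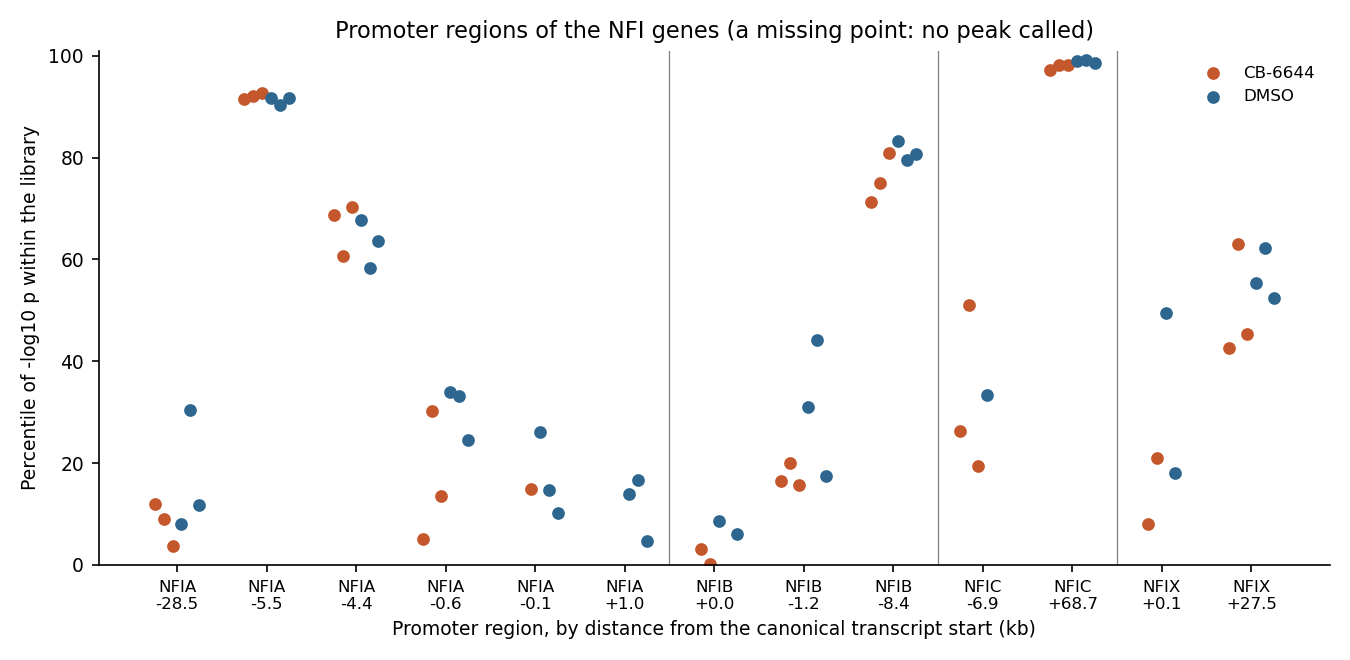
The y axis gives the percentile of -log10 p within the library for the 13 promoter regions of the NFI genes, named on the x axis by the distance from the canonical start in kb, with a point for each library that called the region. The NFIA region with means of 92.1 and 91.2 and the NFIC region above 97 are the highest, and 1 NFIA region has DMSO points only.

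The 75 regions called in all 6 libraries were then compared by rank. In 13 of them (17.3%) every CB-6644 library stood below every DMSO library, and in 4 (5.33%) every CB-6644 library stood above. Over the series, 24.6% of the 42089 shared regions were lower and 5.61% were higher by percentile. A percentile depends on the length of the list, and the lists differed in length between libraries, with ranges that overlapped between the groups. By summit pile-up over background, 3 of the 75 were lower and 1 was higher, where 5.54% and 5.79% of the series were lower and higher. On that scale the median log2 ratio of CB-6644 to DMSO over all shared regions was 0.24, and it was 0.13 for NFIA, -0.17 for NFIB, 0.39 for NFIC and 0.36 for NFIX. These ratios compare group means, and the libraries of a group could lie far apart. At chr1:61042882-61043400, for example, CB-6644 replicates 1, 2 and 3 had 79.3, 168 and 72.4. DMSO replicates 1, 2 and 3 had 160, 82.4 and 68.3. The highest of each group there was its short-fragment library, and the part of these libraries in the medians was not tested.

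Of the shared regions of the series, 24.6% were lower by percentile and 5.54% by pile-up over background. Of the 19 shared NFIA regions, 5 were lower in CB-6644 by percentile, close to the series share, and 2 of them also by pile-up over background. The first of these, chr1:61157525-61157936 in an intron, stood at 42.2, 32.5 and 48.6 in CB-6644 replicates 1, 2 and 3 and at 70.8, 72.4 and 79 in DMSO replicates 1, 2 and 3. Its pile-up over background was 43.9 ± 8.1 against 86.3 ± 10.7 (SD, n = 3), a log2 ratio of -0.97. The second, chr1:60963088-60963789, lies in an NFIA intron that overlaps an exon of NFIA-AS2, a long noncoding RNA gene. It stood at 60, 38.6 and 47.8 in CB-6644 and 74.3, 77.6 and 76.4 in DMSO replicates 1, 2 and 3, with pile-up over background of 59.5 ± 11.8 against 114 ± 16.3 and a log2 ratio of -0.94. In both regions the groups were apart on each scale, and the log2 ratio lay further below 0 than the series median lay above it.

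The other 3 lower NFIA regions overlapped between the groups in pile-up over background. They were the intronic chr1:61174473-61174774, chr1:61284205-61284616 and chr1:61318679-61319173, with differences in mean percentile (CB-6644 minus DMSO) of -27.6, -21 and -9.85. The last was the strongest intronic NFIA region outside the promoter, at 83.8 ± 2.62 in CB-6644 and 93.6 ± 1.35 in DMSO libraries. No shared NFIA region stood higher in every CB-6644 library on either scale when the full lists of all 6 libraries were used. In the 4 long-fragment libraries 11 were lower and 4 higher by percentile, where 43.7% and 14.3% of the series were. After thinning with the p threshold these were 6 and 5, against 28.8% and 24.2%. With each list limited to its 58563 strongest peaks they were 4 and 2, against 12.8% and 12.8%.

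Of the 5 shared NFIB regions, 3 were lower by percentile, namely chr9:13952882-13953294, chr9:14156144-14156534 and chr9:14326365-14326732. Only the last, in an intron near the upstream promoter, was also lower by pile-up over background, at 76.9 ± 7.52 against 106 ± 13.4 (SD, n = 3). Its percentiles were 55.7, 23.8 and 46.6 in CB-6644 and 61.8, 63.5 and 74.1 in DMSO replicates 1, 2 and 3.

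At NFIC, chr19:3516698-3517174 was higher in CB-6644 on both scales, and it lies in an intron of the neighbouring gene FZR1, which encodes an activator of the anaphase-promoting complex. It stood at 75.5, 72.3 and 70.7 in CB-6644 replicates 1, 2 and 3 and at 54.9, 40.3 and 28.8 in DMSO replicates 1, 2 and 3. Its pile-up over background was 127 ± 52.6 against 37.7 ± 19.6 (SD, n = 3), a log2 ratio of 1.76. It was the only shared region of the 4 loci higher on both scales. By percentile alone, chr19:3185223-3186548 at the start of NCLN was higher, and chr19:3275594-3276517 in CELF5 and the NFIC promoter region chr19:3434832-3435551 were lower. The NFIC intron region chr19:3384816-3385094 was not among the shared regions, as DMSO replicate 1 had no call. It stood at 58.2, 48.8 and 43.2 in CB-6644 replicates 1, 2 and 3 and at 12.8 and 6.58 in DMSO replicates 2 and 3. Calls in 3 DMSO and 2 CB-6644 libraries were seen at 3 NFIC regions.

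At NFIX, 3 shared regions were lower and 2 were higher by percentile, and 0 were apart by pile-up over background. The higher ones were chr19:12913953-12914395, in SYCE2 and GCDH, and chr19:12987815-12988187, which lies 7288 bp upstream of NFIX. The latter stood at 58.9, 81.7 and 60.4 in CB-6644 and 58.5, 42.9 and 19.8 in DMSO replicates 1, 2 and 3, so its groups were only just apart. Of the 35 shared regions at NFIX, 13 lay within 1000 bp of the start of another protein-coding gene, as did 6 of 16 at NFIC and 0 at NFIA and NFIB.

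**Figure D5:**
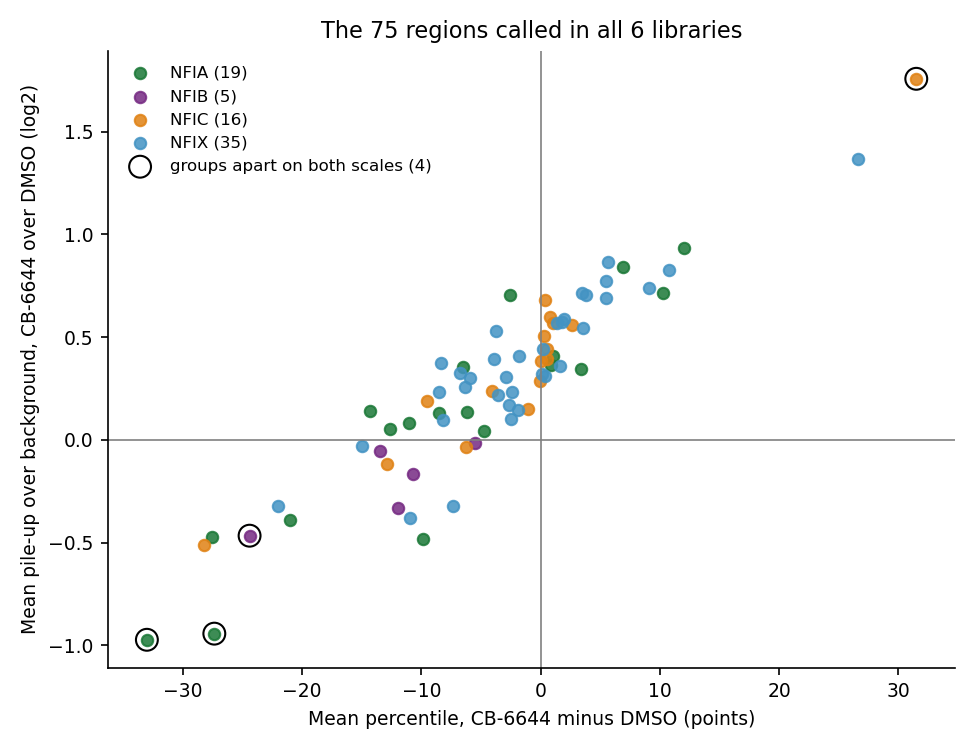
Each point is 1 of the 75 regions called in all 6 libraries, with the difference in mean percentile (CB-6644 minus DMSO, in points) on the x axis and the log2 ratio of mean pile-up over background on the y axis. Circles mark the 4 regions whose groups are apart on both scales, 2 at NFIA and 1 at NFIB to the lower left and 1 in the NFIC window at the upper right.

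The regions of a class differed in size and base composition. The median width of the 7 DMSO-only NFIA regions was 288 bp, against 412 bp for the 19 shared ones, and 270 and 532 bp for these classes over the series. Median GC content within 100 bp of the summit was 38.8% and 52.2% at NFIA, and 41.8% and 54.7% over the series. The DMSO-only promoter region at NFIA was the exception among the 7, with a GC content of 78.6%.

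The full NFI palindrome (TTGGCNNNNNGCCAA) was searched on both strands in the 100 bp on either side of a region's highest summit, with 6 other motifs. It was found in 0 of the 141 regions at the NFI loci and in 71 of 89196 over the series. Its single arm (TTGGCA) was found in 12 of the 141 (8.51%), in 0 of the 8 DMSO-only regions and in 10.1% of all regions. The single arm is short and overlaps part of a full site. By library, the arm was present in 9.70%, 9.51% and 9.57% of peaks in CB-6644 replicates 1, 2 and 3 and in 9.79%, 9.71% and 9.49% in DMSO replicates 1, 2 and 3. The group means of 9.59 ± 0.0942% and 9.67 ± 0.154% (SD, n = 3) differed by less than the spread between DMSO libraries.

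Among the 8 DMSO-only regions, 1 held an IRF match, and 1 held both the ATF4-CEBP and the AP-1 match. IRF factors and the ATF4-CEBP pair act in plasma cell identity and in the integrated stress response, respectively. Over the series, an IRF match was present in 690 of 4016 DMSO-only regions and in 3367 of 42089 shared ones, and an ATF4-CEBP match in 512 and 1064. At the 4 loci an IRF match was present in 8 of 141 regions (5.67%) and an ATF4-CEBP match in 4 (2.84%). Over all regions the shares were 9.98% and 3.98%. An E-box (CAGGTG), a site for E proteins, was found in 41 of 141 regions (29.1%) and in 27.7% of all regions, but in 0 of the 8. The MAF site (TGCTGAC) was found in 7 of 141, and AP-1 in 11.

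A list of 12 genes known to work with NFI proteins or to be regulated by them held cofactors and partners (SOX9, CEBPA, PPARG, EBF2, SKI and FOXA1) and targets (EZH2, BBX, INSC, GFAP, MEF2C and NFATC4). The promoter was called in all 6 libraries for 7 of 12, in some for 2 (SOX9 in 2 libraries and GFAP in 3) and in none for CEBPA, PPARG and EBF2. Their windows held 201 regions, of which 7 (3.48%) were DMSO-only and 0 were CB-6644-only, where 4.5% and 0.586% of all regions were. At least 1 DMSO-only region was present for 4 of the 12 genes, against 38.5% of all protein-coding genes, so neither count stood above the series. The 7 lay at PPARG, the adipocyte regulator (2), INSC (2), MEF2C, a muscle and lymphoid factor (2), and EZH2, the histone methyltransferase (1).

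The genes whose windows were most like each member were found by the distance between the shares of regions with a peak over the 6 libraries, among genes with 0.67 to 1.5 times as many regions. For NFIA they were CHN1 and TCHP, at distances of 0.0653 and 0.0814 among 4367 genes. At CHN1 a peak was called in 53.8%, 57.7% and 61.5% of regions in CB-6644 and 84.6%, 84.6% and 80.8% in DMSO replicates 1, 2 and 3, where NFIA had 51.4%, 59.5% and 56.8% and 83.8% in each. CHN1 had 1 DMSO-only region and TCHP had 4. The nearest genes were C10orf53 and C2orf49 for NFIB (0.0873 and 0.114), PCK1 and STK32C for NFIC (0.0863 and 0.0883) and PLEC for NFIX (0.038).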

How the data were processed

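Each of the 6 MM.1S libraries had 1 deposited peak list, and groups and replicate numbers came from the labels. The submitters' processing notes name hg38, Bowtie2 2.4.2 and MACS3 3.0. The caller's settings are not given in the sources used here. The fold enrichment (a ratio) and the -log10 p and -log10 q in the deposited lists are the authors' values for each summit, with no scaling between libraries. The score column was deposited by the authors as an integer and was not used. For each peak the pile-up and its local background were the whole number and rate that give the listed fold and Poisson p, with a pseudocount of 1 in the fold, and such a pair was found for 100% of peaks. This reading is an inference, and the method was tested on simulated data.

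Peaks on the 22 autosomes and the sex chromosomes were merged at 1 bp of overlap and annotated with GENCODE release 44. Promoters were within 1000 bp of any transcript start. The named regions were every group-only region, every promoter region and those with 3 calls of one group and 1 of the other, and the shared regions whose groups were apart in rank were named after their values were seen. So were chr1:61042882-61043400 and chr19:3384816-3385094. Members, lists and rules were chosen with earlier results of these data known. There were 22 alternatives in the plan and 1 added after the values were seen. Nothing states separate cultures for the replicates. Python 3.11.15 was used (pandas 2.3.3, numpy 2.4.6, scipy 1.17.1), with matplotlib 3.10.9 for plots. Some genes and sequences that these rules would name are not reported here.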

Additional observations from a re-analysis of the deposited data

How the results depend on the processing

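No paired analysis was possible because no result comes from a test. The 8 DMSO-only regions at the 4 loci became 4 when every list was limited to its 58563 strongest peaks, 0 when limited to 20000, and 4 when the long-fragment libraries were thinned to a common background and a -log10 p of at least 20 was also required. They were 8 to 11 when each library was left out, where 5.29% to 6.89% of all regions were DMSO-only. Over the series, the share went from 4.5% to 2.46% at 58563 peaks, 2.79% at 20000 and 6.44% with the thinning and p threshold. At NFIA alone the 7 became 4, 0 and 3 under these settings and 4 where a peak had to cover at least 50% of the region, and were 7 to 9 without each library. The CB-6644-only count of 0 became 1 at 58563 and at 20000 peaks, in the 4 long-fragment libraries with or without the thinning and p threshold, and with calls in 2 of 3 libraries, and was 0 to 1 without each library.

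The 13 shared regions lower by percentile became 8 at 58563 peaks, 4 at 20000, 29 in the 4 long-fragment libraries, 8 in the gene bodies only, 24 with 300 kb on each side and 3 by pile-up over background. They were 13 to 28 without each library, the highest without CB-6644 replicate 2. Shared regions at the loci numbered 73 at 58563 peaks, 30 at 20000 and 78 in the long-fragment libraries. Over the series, 12.8%, 9.54% and 43.7% of shared regions were lower at these settings, and 37.7% without CB-6644 replicate 2. The 4 shared regions higher by percentile became 11 at 58563 peaks, 13 in the 4 long-fragment libraries, 21 when these were thinned and held to that p threshold, 2 with 50 kb on each side, 0 in the gene bodies only, 2 by percentile of fold enrichment and 1 by pile-up over background. They were 4 to 9 without each library, the highest without DMSO replicate 1. Over the series, 12.8%, 14.3% and 24.2% of shared regions were higher at 58563 peaks, in the long-fragment libraries and after thinning with that threshold. At 58563 peaks the series had 4820 lower and 4839 higher shared regions, where the full lists gave 10335 and 2362. An alternative added after the values were seen, pile-up over background in the 4 long-fragment libraries, gave 16 lower and 25 higher, where the series had 23.6% lower and 30.2% higher. Smaller windows hold fewer regions; the cause of the other changes was not tested. With 1000 bp replaced by 500 bp, an NFIX promoter peak was called in 4 libraries in place of 6. Of the 452 recomputed values, 329 stayed within 1.5 times the reported one.

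The order of shared regions changed with the scale and the libraries used. Depth is unknown, and a region with no call is not shown to be closed.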
